A study of Mus musculus with 76 samples.

Results

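The difference between circadian time (CT) 12 and CT0 was examined in livers of wild-type (WT) mice fed ad libitum (AL). Its members were the 6 liver libraries so labelled, of 76 in the series: CT0_38, CT0_39 and CT0_401 at CT0 and CT12_47, CT12_48 and CT12_404 at CT12, named here by the ends of their titles. Read counts of all genes expressed in liver were compared, which were 14397. CT counts hours in constant conditions, with CT0 the start of the subjective day, when mice rest, and CT12 the start of the subjective night, when they are active and feed. The other groups used here were AL livers of Bmal1-VIPKO mice (KO) and WT livers under time-restricted feeding (TRF), with 3 libraries at each time. By its name, the Bmal1-VIPKO line lacks Bmal1 (gene symbol Arntl) in cells producing vasoactive intestinal peptide and not in hepatocytes. The labels give no strain, age, sex, Cre line or feeding hours, and do not say whether a library held 1 animal or a pool. P-values therefore measure the spread between libraries of a group, which may be partly technical. In the main fit this spread was estimated from all liver groups of the series together, and not from the 6 AL WT libraries alone. The comparison asks which liver transcripts differ between the times when mice eat freely.

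In hepatocytes, as in most cells, CLOCK or NPAS2 pairs with BMAL1 and switches on genes through E-box elements, among them the Per and Cry genes, whose proteins shut the pair off again. REV-ERB and ROR proteins act through a second element, and the factors DBP, TEF and HLF through D-boxes, which gives sets of genes that peak at different hours. Outputs of this clock, together with feeding and hormones, time much of the fat, sugar, bile acid and drug metabolism of the liver.

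The libraries of a group were not equally distant from each other. Total counts ran from 13502014 to 17511276. A pair of libraries that differ by counting noise alone gives a median chi-square of 0.455 per gene, and CT0_39 differed from CT0_38 at 5.72 and CT12_48 from CT12_47 at 5.53. In contrast, CT0_401 differed from CT0_38 at 0.794 and CT12_404 from CT12_47 at 0.921, both above counting noise. The 28 other pairs of livers within a group ran from 0.863 to 6.59, with 1 of them under 0.921. Among 38 genes at least 3-fold apart between CT0_38 and CT0_39, library CT0_401 lay near 1 position on the way from CT0_39 to CT0_38, at a median of 0.795 (quartiles 0.752 and 0.863, where 1 is the level in CT0_38). Library CT12_404 lay at a median of 0.791 on the way from CT12_48 to CT12_47 (quartiles 0.658 and 0.849, 17 genes). The AL KO libraries CT0_407 and CT12_410 also lay near 1 position on the way between their group mates, with quartiles 0.496 and 0.622 for CT0_407 and 0.652 and 0.791 for CT12_410. For TRF libraries placed between others in the same way, the quartiles were at least 0.462 apart. Mixtures were measured by a chi-square of another form, whose values cannot be set against those of the pairs above. By it, a mixture of 86% of CT0_38 with 14% of CT0_39 left CT0_401 at a median of 0.640. CT0_38 was at 0.770 as 100% of CT0_401. No mixture of CT12_47 and CT12_48 brought CT12_404 under 0.860, and CT12_47 was at 0.866 as 98% of CT12_404 with 2% of CT12_48. Mixtures of the other libraries of their groups brought CT0_407 to 0.593 and CT12_410 to 0.626. Library CT12_404 held heart muscle transcripts that CT12_47 and CT12_48 did not: Myh6, the cardiac myosin heavy chain, stood at 64.0 CPM in CT12_404 and at 0.361 or less in the other 5. The 7 heart transcripts examined reached a median of 0.186% of their level in the heart library of the same number. Of all 26 liver libraries, 6 had Myh6 between 45.9 and 66.4 CPM, and the rest at most 1.02. Besides CT12_404 they were the AL KO libraries CT0_57, CT0_407, CT12_65 and CT12_410 and the TRF WT library CT0_1. What this trace does to the comparison with AL KO below was not tested. How many independent livers each group holds is therefore not known, and the tests of single genes are given with all 6 libraries and without CT0_401 and CT12_404.

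**Figure D1:**
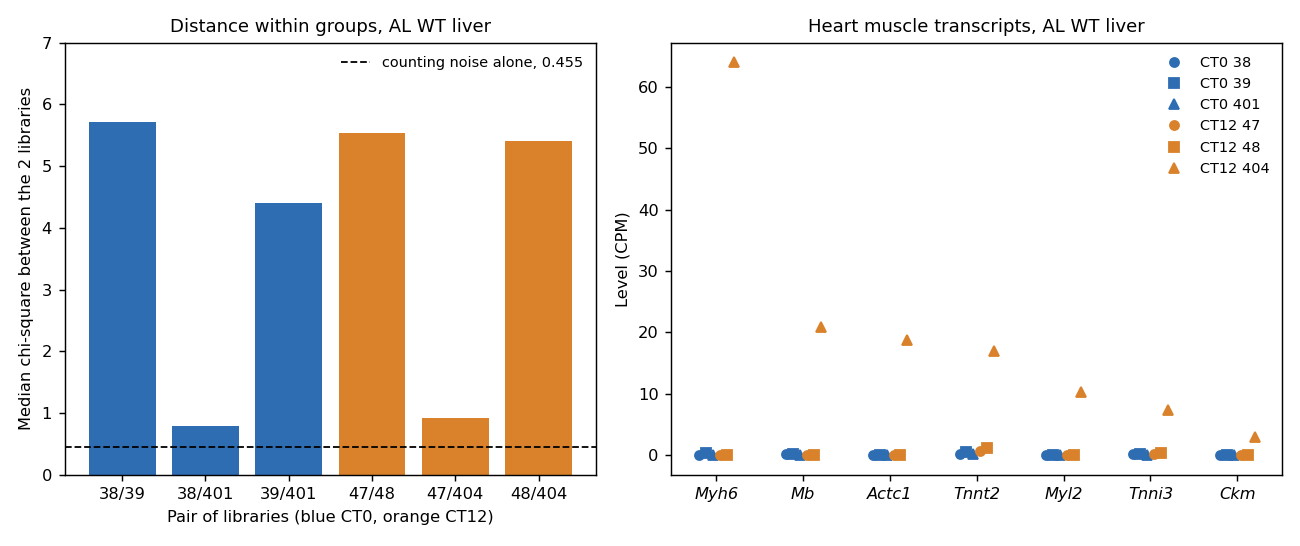
Left, the median chi-square per gene between the 2 libraries of each pair, where the dashed line marks 0.455 for counting noise; the pairs CT0_38 with CT0_401 (0.794) and CT12_47 with CT12_404 (0.921) lie far below the other 4. Right, levels in CPM of 7 heart muscle transcripts in the 6 livers (blue CT0, orange CT12), of which CT12_404 alone is raised, to 64.0 CPM for Myh6.

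Of the 14397 genes, 1294 (8.99%) differed between times, 640 (4.45%) higher and 654 (4.54%) lower at CT12, at an adjusted p under 0.05 in edgeR's quasi-likelihood test. Without CT0_401 and CT12_404 the test called 474 (3.29%), 208 higher and 266 lower, and 471 of these were called with all 6 libraries in the same direction. Summing CT0_38 with CT0_401 and CT12_47 with CT12_404, which leaves 2 libraries per time, called 511 (3.55%), 220 higher (1.53%) and 291 lower (2.02%). A change of at least 2-fold was seen in 450 called genes, 212 higher and 238 lower. The median log2 change was 0.74 in called genes that rose and -0.82 in those that fell, beside -0.01 over all genes tested. All 3 libraries of a time lay above all 3 of the other for 1271 of the called genes and for 28.2% of all genes tested. Of genes with a mean level of 100 to 1000 CPM 15.8% were called, against 2.91% under 1 CPM and 8.26% over 1000 CPM.

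**Figure D2:**
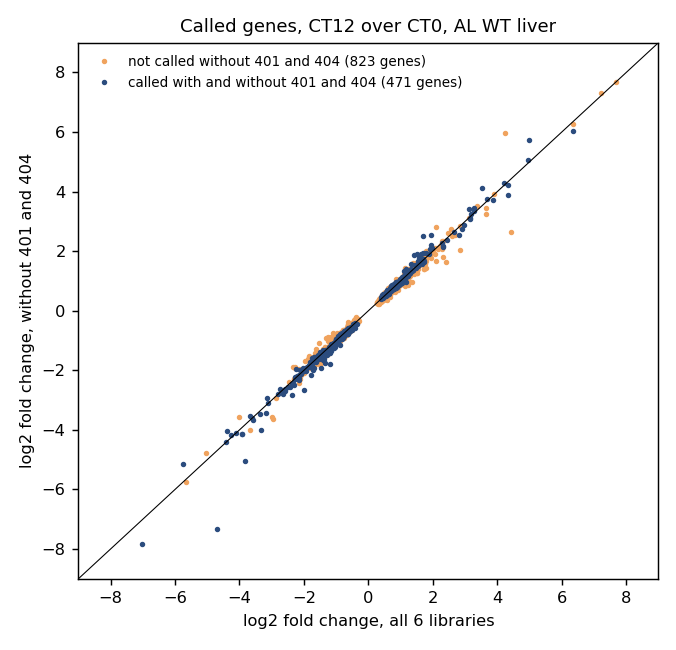
Each point is 1 of the 1294 called genes, with its log2 fold change (CT12 over CT0) from all 6 libraries on the horizontal axis and without CT0_401 and CT12_404 on the vertical axis. The 471 genes called both ways (dark) and the 823 not called without CT0_401 and CT12_404 (orange) both lie along the diagonal. Both axes use CT0_38, CT0_39, CT12_47 and CT12_48, so closeness to the diagonal is partly fixed in advance.

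Levels are given below in CPM, which are counts over a library total corrected by TMM, in the order CT0_38, CT0_39 and CT0_401 at CT0 and CT12_47, CT12_48 and CT12_404 at CT12. Changes are log2 of CT12 over CT0 with their standard errors. After each stand 2 adjusted p-values of edgeR, the first from all 6 libraries and the second without CT0_401 and CT12_404. The second fit kept the AL KO libraries CT0_407 and CT12_410, which entered its estimate of spread. It called 67 of the 116 named genes called with all 6 libraries. With CT0_407 and CT12_410 left out as well, 55 were called. Clock, Wee1, Mvk and Fads2 then lost their calls, with adjusted p of 0.073, 0.076, 0.061 and 0.063 in edgeR. The share of tested genes called, 4.45% higher and 4.54% lower (1.44% and 1.85% without CT0_401 and CT12_404), is the background for each list. Some genes stand in more than 1 list, such as Gys2, Elovl6 and Por, so the counts of different lists are not independent.

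The core clock list held 19 genes, of which 9 were higher and 4 lower at CT12. Without CT0_401 and CT12_404 the counts were 6 and 3. Among them the period gene Per1 rose (log2 3.18 ± 0.52, p 5.26e-04 and 0.0115), as did Tef, 1 of the D-box factors (log2 2.67 ± 0.47, p 0.00104 and 0.0222), while Clock fell (log2 -0.92 ± 0.19, p 0.00215 and 0.0402). Levels of Clock, the partner of Bmal1, were 54.8, 33.5 and 49.8 CPM at CT0 and 23.0, 24.8 and 25.3 CPM at CT12, so that the times did not overlap although CT0 libraries spread. Pairs summed, its p was 0.0501.

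All 7 genes in a list of clock-output enzymes rose, 6 of them without CT0_401 and CT12_404 as well (median log2 2.43). The list was drawn up with earlier results of these libraries known. Nampt, the rate-limiting enzyme of NAD salvage, stood at 41.6, 26.6 and 39.5 CPM at CT0 and 122, 104 and 125 CPM at CT12 (log2 1.71 ± 0.16, p 1.91e-07 and 2.32e-05). Every CT12 library was at least 2-fold above every CT0 library. Coq10b, which helps coenzyme Q work in the respiratory chain, was at 8.78, 5.06 and 8.39 CPM at CT0 and 43.1, 29.4 and 47.4 CPM at CT12 (log2 2.43 ± 0.32, p 2.36e-05 and 0.00135). Usp2, a deubiquitinase, rose from 6.83 ± 1.71 to 88.7 ± 4.68 CPM (mean ± SD, n = 3 each; log2 3.69 ± 0.58, p 3.35e-04 and 0.00928), Wee1, a kinase that restrains entry into mitosis, from 2.96 ± 0.584 to 23.2 ± 3.08 CPM (log2 2.97 ± 0.57, p 0.00218 and 0.0403), and Por, the reductase that feeds electrons to P450 enzymes, from 197 ± 49.6 to 954 ± 176 CPM (log2 2.28 ± 0.41, p 0.00100 and 0.0185). Noct, which removes phosphate from NADP cofactors, was at 27.0, 10.1 and 24.1 CPM at CT0 and 92.7, 157 and 113 CPM at CT12, and its rise missed the threshold without CT0_401 and CT12_404 (log2 2.56 ± 0.57, p 0.00703 and 0.0510).

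The promoters of 2 genes that rose are shown because they hold clock elements in the 250 bases upstream of the RefSeq start (GRCm38.p6). Capitals mark the E-box CACGTG or the D-box, TTATGTAA or TTACGTAA on either strand.
Coq10b (chr1:55052646-55052745, + strand): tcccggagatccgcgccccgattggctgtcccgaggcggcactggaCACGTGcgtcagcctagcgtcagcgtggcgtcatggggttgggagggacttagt
Coq10b (chr1:55052562-55052661, + strand): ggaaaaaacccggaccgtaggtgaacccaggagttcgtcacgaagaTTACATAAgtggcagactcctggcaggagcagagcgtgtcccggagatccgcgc
Pfkfb3 (chr2:11502091-11502190, - strand): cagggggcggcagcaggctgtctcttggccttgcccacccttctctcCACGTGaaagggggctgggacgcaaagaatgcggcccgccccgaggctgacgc
Coq10b holds both elements within its window, the D-box on the reverse strand. Pfkfb3, described with the sugar genes, holds an E-box. Of the 5 clock-output genes with a promoter in the table, Coq10b alone held an E-box or a D-box. The E-box also stood upstream of Ppp1r3c, which fell, and a D-box upstream of G6pc, which was not called. Over 10375 tested genes with a promoter in the table, CACGTG was present in 9.84%, over the risen genes in 12.7% and over the fallen genes in 14.5%. The D-box letters were present in 0.781% of tested genes, in 2.08% of the risen (10 of 481) and in 0.605% of the fallen (3 of 496). Over genes also called without CT0_401 and CT12_404 the order of the E-box shares turned, with 16.7% of the risen (26 of 156) and 13.9% of the fallen (27 of 194). The D-box was then in 3.21% of the risen (5 of 156) and 0% of the fallen (0 of 194). The D-box shares thus rest on few genes. These shares describe letters in a short window, and binding was not measured.

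Cholesterol synthesis was the list with most falls. Of 25 tested genes, 15 fell and none rose at CT12 with all 6 libraries (median log2 -0.77), and 5 fell without CT0_401 and CT12_404. Between 10 and 14 fell when any 1 library was left out. Hmgcs1, which makes the HMG-CoA from which the pathway starts, stood at 347, 277 and 341 CPM at CT0 and 77.7, 51.9 and 76.2 CPM at CT12 (log2 -2.23 ± 0.36, p 3.54e-04 and 0.00871), and the times did not overlap. The mevalonate kinase Mvk was at 53.9, 54.7 and 49.8 CPM at CT0 and 27.5, 29.3 and 23.6 CPM at CT12 (log2 -0.98 ± 0.19, p 0.00172 and 0.0330). Fdft1, which makes squalene, fell from 222 ± 10.0 to 110.4 ± 1.96 CPM (n = 3 each; log2 -1.01 ± 0.18, p 6.53e-04 and 0.0165), and the late enzymes Dhcr7 and Sc5d fell as well (log2 -0.89 ± 0.16, p 8.10e-04 and 0.0231 for Dhcr7; log2 -0.89 ± 0.18, p 0.00232 and 0.0213 for Sc5d). Insig2, a member of the fatty acid synthesis list that holds the SREBP activators of sterol synthesis in the endoplasmic reticulum, fell from 288, 229.8 and 269 CPM to 83.2, 55.2 and 71.5 CPM (log2 -1.91 ± 0.24, p 1.11e-05 and 8.01e-04).

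The promoters of Hmgcs1, the steepest fall of the cholesterol list, and of Insig2, which stood in the fatty acid synthesis list, are shown for the elements they hold. Capitals mark the sterol element TCACNCCAC in Hmgcs1 and the REV-ERB/ROR element in Insig2, searched as TAGGTCA or TGGGTCA on both strands. Abcb11 and Plin2, which also fell, are shown with them as they hold the same element.
Hmgcs1 (chr13:119690168-119690267, + strand): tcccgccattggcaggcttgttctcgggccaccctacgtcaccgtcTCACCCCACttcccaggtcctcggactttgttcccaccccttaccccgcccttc
Insig2 (chr1:121328170-121328269, - strand): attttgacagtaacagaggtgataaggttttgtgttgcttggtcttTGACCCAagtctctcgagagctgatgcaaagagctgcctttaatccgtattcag
Abcb11 (chr2:69342619-69342718, - strand): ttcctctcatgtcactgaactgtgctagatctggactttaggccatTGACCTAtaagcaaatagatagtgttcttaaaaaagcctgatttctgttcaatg
Plin2 (chr4:86670210-86670309, - strand): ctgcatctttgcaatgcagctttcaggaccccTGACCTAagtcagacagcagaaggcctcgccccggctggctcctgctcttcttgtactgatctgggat
In Insig2, Abcb11 and Plin2 the match is on the reverse strand, where it reads as TGACCCA or TGACCTA on the gene's own strand. The element was present in 5.43% of tested genes with a promoter, in 8.87% of the fallen and in 4.37% of the risen. Over genes also called without CT0_401 and CT12_404 it was in 11.9% of the fallen and 3.21% of the risen. It also stood upstream of Slc37a4, which rose, and of G6pc, which was not called. The sterol element was in 1.35% of tested genes and in 1.61% of the fallen. In the cholesterol list it was in 1 of 17 genes with a promoter in the table, which was Hmgcs1.

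**Figure D3:**
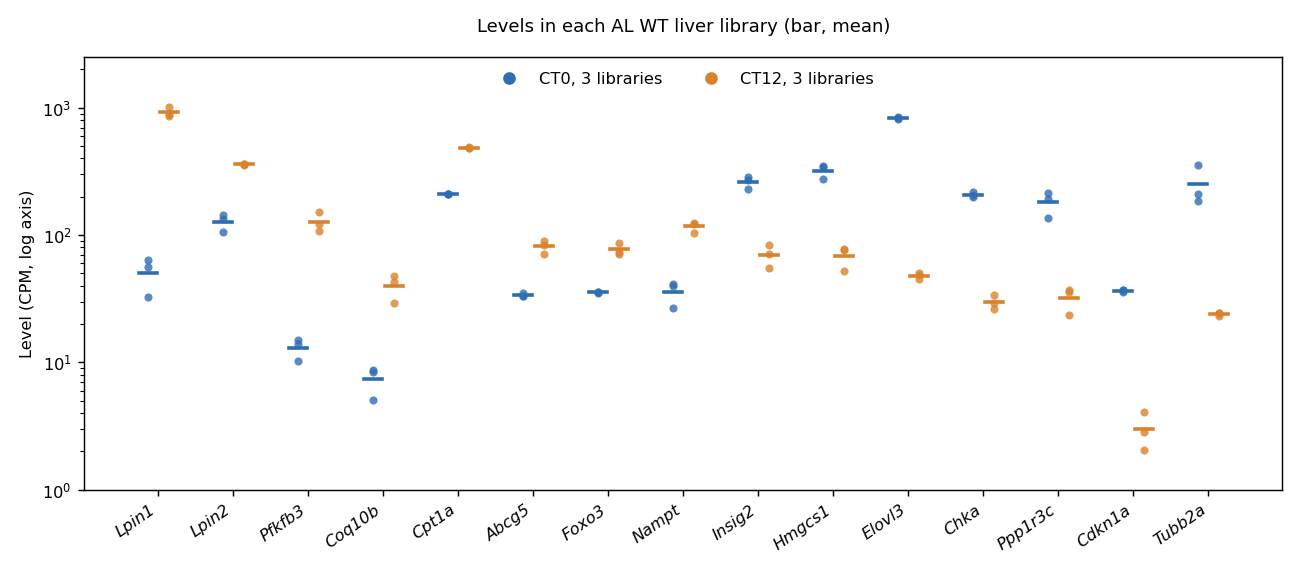
Levels in CPM on a log axis of 15 genes in each of the 3 CT0 (blue) and 3 CT12 (orange) libraries, with a bar at each group's mean. Lpin1 to Nampt lie higher and Insig2 to Tubb2a lower at CT12, and in none do the times overlap.

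Fatty acid synthesis genes did not move together. Of 17 tested, 2 rose and 2 fell (median log2 0.04), and 1 and 1 without CT0_401 and CT12_404. Fasn, the fatty acid synthase, was at 1467, 2231 and 1569.8 CPM at CT0 and 1921, 1108 and 1548 CPM at CT12 (p 0.892 and 0.919), and Srebf1, the main activator of this pathway, at 385, 845 and 469 CPM at CT0 and 757, 399 and 585 CPM at CT12 (p 0.975 and 0.967). In both, CT0_39 was the highest library and CT12_48 the lowest at CT12. Acaca, the acetyl-CoA carboxylase, stood at 225, 109 and 189 CPM at CT12, with CT12_48 at the CT0 level of 107, 117 and 115 CPM (p 0.240 and 0.560). Fads2, a desaturase for polyunsaturated fats, rose from 270.0, 326 and 271 CPM to 575, 562 and 576 CPM (log2 0.98 ± 0.19, p 0.00139 and 0.0346).

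The elongases, which lengthen fatty acids, went both ways, with 2 higher and 3 lower of 8, and 0 and 2 without CT0_401 and CT12_404. Elovl3 fell most, from 836, 821 and 851 CPM to 45.0, 50.5 and 48.9 CPM (log2 -4.12 ± 0.47, p 7.87e-06 and 5.88e-04). Elovl1 fell from 72.2, 74.6 and 73.8 CPM to 37.7, 54.8 and 41.4 CPM (log2 -0.72 ± 0.13, p 4.53e-04 and 0.0187), and Elovl5 (log2 -0.98 ± 0.25, p 0.0152 and 0.0777). Elovl6 was at 70.6, 83.1 and 77.6 CPM at CT0 and 365, 122 and 304 CPM at CT12, with CT12_48 the lowest at CT12 (log2 1.78 ± 0.50, p 0.0291 and 0.203). Of the fits that left out 1 library, only that without CT12_48 called its rise (p 0.0117). The transcription factor gene Pitx3, the steepest fall beside Npas2 among genes over 5 CPM (log2 -4.27 ± 0.48), shares 10 bases with Elovl3 at its end on the opposite strand. The strand setting is not given, so reads on those bases cannot be assigned to either gene.

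In triglyceride and lipid droplet metabolism 3 of 17 genes rose and 2 fell, and 2 and 1 without CT0_401 and CT12_404. Lpin1, which makes diacylglycerol from phosphatidate and is also a coactivator, rose from 63.7, 32.4 and 55.7 CPM to 862, 1019 and 897 CPM (log2 4.19 ± 0.60, p 1.27e-04 and 0.00424; ENSMUSG00000020593, chromosome 12, 16535669 to 16610966). Its relative Lpin2 rose from 143, 106 and 134 CPM to 356, 359 and 365 CPM (log2 1.50 ± 0.18, p 6.49e-06 and 4.93e-04). All 3 CT12 values of Lpin2 lay within 10 CPM of each other. Plin2, which coats lipid droplets, fell from 563, 754 and 596 CPM to 311, 309 and 284 CPM (log2 -1.08 ± 0.20, p 9.82e-04 and 0.0186). Cidec, which fuses droplets, rose (log2 0.84 ± 0.23, p 0.0224 and 0.175), and Agpat2, an acyltransferase, fell (log2 -0.49 ± 0.16, p 0.0471 and 0.238). Dgat2, which makes the final triglyceride, and Pnpla2, the first lipase, were not called, at log2 0.30 ± 0.18 and 0.55 ± 0.19. None of 16 lipoprotein genes was called by edgeR or DESeq2, with 2 at an unadjusted p under 0.05.

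Chka, the first enzyme of phosphatidylcholine synthesis, fell from 198, 217 and 205 CPM to 26.3, 34.1 and 29.1 CPM (log2 -2.79 ± 0.21, p 6.29e-09 and 3.05e-06). It was the 1 fall among 12 phospholipid genes, while Etnk2, an ethanolamine kinase, rose (log2 0.60 ± 0.19, p 0.0487 and 0.193). Pcyt1a, which catalyses the step after Chka, was at 85.8, 82.7 and 85.9 CPM at CT0 and 107, 95.2 and 104 CPM at CT12 (p 0.0818 and 0.315). Mfsd2a, a carrier of lysophosphatidylcholine, rose from 17.4, 5.92 and 15.2 CPM to 147, 123 and 132 CPM (log2 3.38 ± 0.80, p 0.0114 and 0.0849), with CT0_39 the lowest.

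Fat oxidation and ketone body genes were called in 3 of 26 cases, all higher (median log2 0.14), and 1 without CT0_401 and CT12_404. Cpt1a, which brings fatty acids into mitochondria, was nearly constant within each time, at 211, 209.8 and 209.8 CPM at CT0 and 483, 495 and 483 CPM at CT12 (log2 1.21 ± 0.14, p 3.48e-06 and 3.61e-04). Ppara, the receptor that drives this pathway in fasting, was at 61.9, 63.3 and 61.8 CPM at CT0 and 97.8, 101 and 98.2 CPM at CT12 (log2 0.67 ± 0.19, p 0.0229 and 0.151), and its coactivator Ppargc1a rose (log2 1.29 ± 0.30, p 0.00751 and 0.0688). Outside this list, the related receptor Ppard fell from 74.5, 84.7 and 81.1 CPM to 10.3, 15.1 and 10.1 CPM (log2 -2.75 ± 0.32, p 6.49e-06 and 6.36e-04).

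Among 14 gluconeogenesis genes 5 rose and none fell (median log2 0.46), 3 when any 1 library was left out and 1 without CT0_401 and CT12_404. That one was Foxo1, a factor that insulin shuts out of the nucleus, at 21.3, 14.8 and 19.5 CPM at CT0 and 42.4, 34.0 and 37.2 CPM at CT12 (log2 1.03 ± 0.17, p 2.17e-04 and 0.00505). Pck1, the committed enzyme, was at 852, 1144 and 908 CPM at CT0 and 3041, 4044 and 3187 CPM at CT12 (log2 1.82 ± 0.52, p 0.0329 and 0.180). The glucose 6-phosphate carrier Slc37a4 (log2 0.83 ± 0.22, p 0.0168 and 0.124) and Klf15 (log2 0.57 ± 0.16, p 0.0231 and 0.121), an activator of amino acid use for glucose, also lost their calls without CT0_401 and CT12_404. G6pc, which releases free glucose, was at 657, 902 and 745 CPM at CT0 and 673, 897 and 757 CPM at CT12 (p 0.990 and 0.997), with the times overlapping.

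Glycolysis and glucose uptake genes rose in 4 of 15 cases and fell in none, and rose in 2 without CT12_47 or without CT0_401 and CT12_404. Pfkfb3, which makes the fructose 2,6-bisphosphate that drives glycolysis, rose from 15.0, 10.2 and 13.9 CPM to 108, 152 and 123 CPM (log2 3.28 ± 0.42, p 3.29e-05 and 0.00153). Gpi1, an enzyme common to both directions, rose from 131, 154 and 138 CPM to 229, 200.2 and 216 CPM (log2 0.61 ± 0.11, p 7.74e-04 and 0.0216). The glucose carrier Slc2a2 rose (log2 0.74 ± 0.18, p 0.00889 and 0.103), and was not called without CT0_39 (p 0.0511) or without CT12_47 (p 0.0725). Pklr, the liver pyruvate kinase, was at 335, 411 and 355 CPM at CT0 and 1006, 514 and 775 CPM at CT12 (p 0.0641 and 0.289). Hcn3, an ion channel gene that shares 711 bases with Pklr on the opposite strand, was at 15.2, 18.4 and 19.6 CPM at CT0 and 163, 77.4 and 139 CPM at CT12 (log2 2.83 ± 0.69, p 0.0128 and 0.104). In both genes CT12_48 was the lowest CT12 library and CT12_47 the highest.

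Glycogen genes moved in both directions, 3 higher and 1 lower of 12, and 2 and 1 without CT0_401 and CT12_404. Gys2, the liver glycogen synthase, rose from 113, 111 and 115 CPM to 311, 267 and 303 CPM (log2 1.38 ± 0.17, p 9.39e-06 and 7.83e-04). Ppp1r3c, which brings phosphatase 1 to glycogen and so favours storage, fell from 214, 136 and 191 CPM to 36.0, 23.6 and 37.1 CPM (log2 -2.49 ± 0.32, p 2.82e-05 and 0.00115). Stbd1, which anchors glycogen to membranes, rose (log2 0.55 ± 0.11, p 0.00166 and 0.0163). Ugp2, which makes UDP-glucose, was at 144, 88.4 and 143 CPM at CT0 and 274, 120.2 and 247 CPM at CT12 (log2 0.77 ± 0.24, p 0.0424 and 0.196), where CT12_48 lay below 2 of the CT0 libraries.

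Of 13 genes of insulin signalling and fasting 4 rose, 2 of them also without CT0_401 and CT12_404. Foxo3, a relative of Foxo1, went from 35.4, 35.5 and 36.0 CPM to 73.5, 87.1 and 71.5 CPM (log2 1.12 ± 0.15, p 1.96e-05 and 6.70e-04), and Pik3r1, a subunit of the insulin-activated kinase, rose (log2 0.66 ± 0.16, p 0.00786 and 0.0855). Irs2 and Igfbp1, which insulin lowers, varied within times rather than between them. Irs2 stood at 19.6, 60.2 and 26.1 CPM at CT0 and 11.0, 67.6 and 25.2 CPM at CT12, and Igfbp1 at 59.8, 518 and 146 CPM at CT0 and 129, 338 and 170.3 CPM at CT12 (p 0.990 and 0.997 for Irs2, 0.932 and 0.936 for Igfbp1). Libraries CT0_39 and CT12_48 were the highest of their times in both genes.

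Bile acid and sterol transport genes gave 3 rises and 2 falls of 19, and 1 each without CT0_401 and CT12_404. Abcb11, the bile salt export pump, fell from 696, 608 and 689 CPM to 327, 292 and 340.0 CPM (log2 -1.06 ± 0.12, p 3.30e-06 and 2.65e-04). Abcg5 and Abcg8, partner subunits of the pump that moves sterols into bile, rose (log2 1.27 ± 0.19, p 1.03e-04 and 0.00523 for Abcg5; log2 0.82 ± 0.21, p 0.0156 and 0.143 for Abcg8). The 2 genes share 6710 bases on opposite strands, so their reads may be split between them. Abcc2, an exporter of conjugates, rose (log2 0.52 ± 0.11, p 0.00386 and 0.0617), while Cyp8b1, which directs synthesis towards cholic acid, fell from 575 ± 58.6 to 233 ± 8.57 CPM (n = 3 each; log2 -1.30 ± 0.33, p 0.0153 and 0.112). Cyp7a1, the rate-limiting enzyme of bile acid synthesis, was at 120.0, 100.4 and 116 CPM at CT0 and 141, 97.3 and 138 CPM at CT12 (p 0.914 and 0.971).

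Xenobiotic genes rose in 4 of 22 cases, 2 of them without CT0_39 or without CT0_401 and CT12_404, and none fell (median log2 -0.06). These 2 were Nr1i2 and Por, which was already counted with the clock-output enzymes above. The receptor Nr1i2 (PXR) was at 84.8, 81.4 and 78.2 CPM at CT0 and 129, 134 and 123 CPM at CT12 (log2 0.66 ± 0.12, p 8.10e-04 and 0.0173). Cyp2a5, a coumarin hydroxylase, was at 327, 355 and 353 CPM at CT0 and 993, 1107 and 1026 CPM at CT12 (log2 1.59 ± 0.41, p 0.0163 and 0.113). Cyp2e1, which oxidises ethanol, rose as well (log2 0.65 ± 0.17, p 0.0132 and 0.120), and neither was called without CT0_401 and CT12_404. Leaving out 1 library ended the call of Cyp2a5 for CT0_38, CT0_39 and CT0_401, with p up to 0.0587, and that of Cyp2e1 for CT0_39, CT12_47 and CT12_404, with p up to 0.0675. Nr1i3 (CAR) and its target Cyp2b10 were not called (p 0.503 and 0.781, and 0.315 and 0.571), although all 3 CT0 values of Cyp2b10, 16.8, 13.8 and 15.8 CPM, lay above the CT12 values of 5.46, 2.90 and 4.75 CPM. Cyp2a and Cyp2b genes have near-identical relatives, among which reads may be divided. Alas1, the rate-limiting enzyme of heme synthesis, was at 895, 542 and 792 CPM at CT0 and 2075, 2282 and 2083 CPM at CT12 (log2 1.53 ± 0.39, p 0.0156 and 0.0983), and Uros, further along the same pathway, fell (log2 -0.55 ± 0.14, p 0.0124 and 0.152).

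In methionine and one-carbon metabolism 3 of 14 genes fell and none rose (median log2 -0.30), and 2 fell without CT0_401 and CT12_404. Cbs, which draws homocysteine towards cysteine, fell from 566, 816 and 602 CPM to 298, 365 and 294 CPM (log2 -1.05 ± 0.18, p 4.52e-04 and 0.0103). Bhmt, which remethylates homocysteine, was at 6201, 3393 and 5541 CPM at CT0 and 2419, 1318 and 2073 CPM at CT12 (log2 -1.38 ± 0.31, p 0.00620 and 0.0689). Of 21 glutathione and NRF2 genes 3 fell, 1 of them without CT0_39, and 1 rose. Gclc, the first enzyme of glutathione synthesis, fell (log2 -0.83 ± 0.19, p 0.00562 and 0.0403), the transferase Gstm4 (log2 -0.85 ± 0.19, p 0.00425 and 0.0374), and Srxn1, which repairs peroxiredoxins (log2 -0.57 ± 0.15, p 0.0183 and 0.0780). Leaving out library CT0_39 alone ended the call of Gclc (p 0.0588). Gstm4 belongs to a family of similar genes.

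Amino acid breakdown and the urea cycle gave 1 rise and 1 fall of 22, and 0 and 1 without CT0_401 and CT12_404. Hal, which starts histidine breakdown, fell from 498, 569 and 516 CPM to 271, 233 and 253 CPM (log2 -1.06 ± 0.18, p 3.83e-04 and 0.00986), and Sds, the serine dehydratase, was at 44.4, 55.9 and 41.2 CPM at CT0 and 146, 156 and 135 CPM at CT12 (log2 1.63 ± 0.48, p 0.0382 and 0.209). Cps1, the entry enzyme of the urea cycle, was at 4148, 3475 and 4009.5 CPM at CT0 and 4386, 4135 and 4402 CPM at CT12 (p 0.685 and 0.828). Among 18 NAD genes 2 rose and 1 fell, and Nmrk1, a nicotinamide riboside kinase, rose beside Nampt, from 26.9, 19.4 and 25.6 CPM to 53.9, 47.2 and 53.7 CPM (log2 1.10 ± 0.19, p 4.37e-04 and 0.0103).

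**Figure D4:**
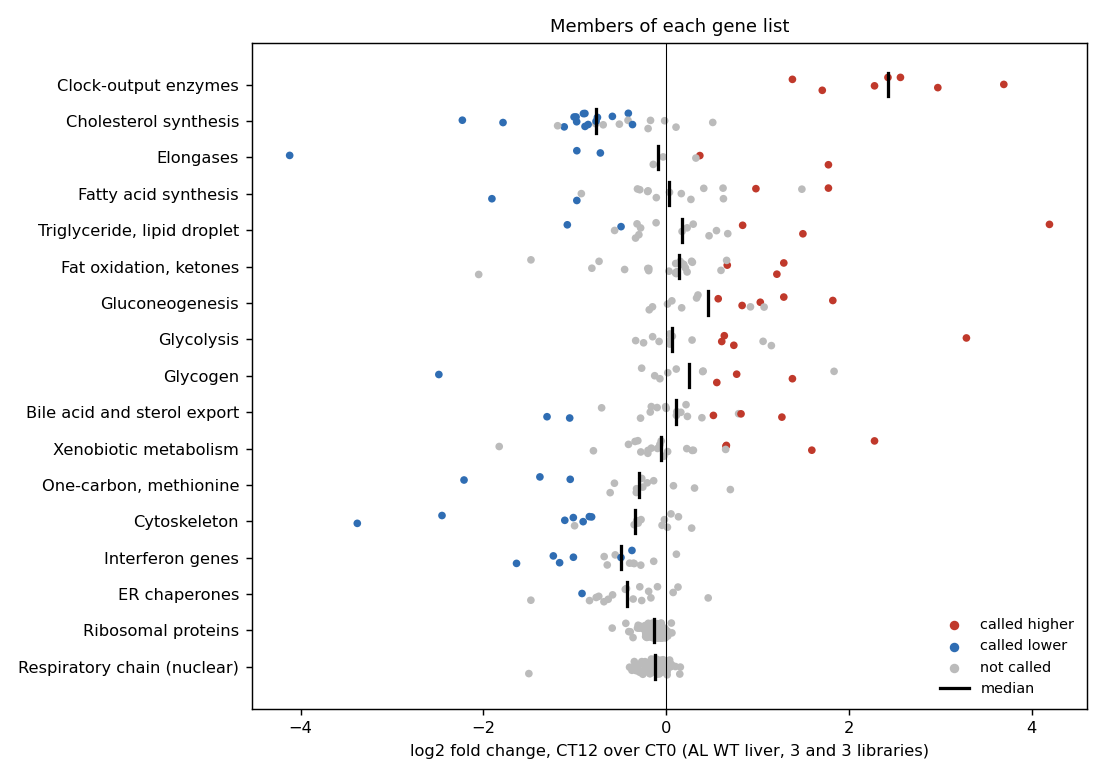
Each row is a gene list and each point 1 tested member, placed by its log2 fold change between CT12 and CT0 with all 6 libraries; red and blue mark members called higher and lower, grey those not called, and the bar the median. Cholesterol synthesis has 15 blue points of 25, clock-output enzymes 7 red of 7, and the ribosomal protein and respiratory chain lists none of either colour.

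Cytoskeletal genes fell in 7 of 18 cases with none rising (median log2 -0.34), 5 without library CT0_39 and 4 without CT0_401 and CT12_404. Tubb2a, a beta tubulin, fell from 184, 357 and 210.2 CPM to 24.4, 24.5 and 23.3 CPM (log2 -3.38 ± 0.27, p 3.05e-08 and 4.16e-06). Its CT0 libraries spread widely, with CT0_39 the highest, while those at CT12 lay together. Tuba4a, Tubb4b and the keratin gene Krt18 showed the same order at CT0, at 241, 387 and 262 CPM, 181, 276 and 191 CPM and 161, 229.9 and 173 CPM. All 3 fell (log2 -1.11 ± 0.19, p 3.22e-04 and 0.00595 for Tuba4a; log2 -1.02 ± 0.19, p 0.00105 and 0.0132 for Tubb4b; log2 -0.82 ± 0.18, p 0.00505 and 0.0429 for Krt18). Actb, beta actin, fell from 697 ± 131 to 372 ± 26.6 CPM (n = 3 each; log2 -0.91 ± 0.22, p 0.0112 and 0.0711), and Tuba1c fell (log2 -0.84 ± 0.20, p 0.00957 and 0.0983). Tubulin genes share stretches of near-identical sequence, which can divide reads among them.

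Cdkn1a, the p21 inhibitor of the cell cycle, fell from 37.2, 37.4 and 35.6 CPM to 2.07, 4.08 and 2.83 CPM (log2 -3.61 ± 0.52, p 1.20e-04 and 0.00471), 1 of 16 growth arrest genes to fall. Plk3, a stress kinase, was the one that rose, at 47.5, 139 and 62.4 CPM at CT0 and 284, 377 and 279 CPM at CT12 (log2 1.91 ± 0.51, p 0.0214 and 0.157). Of 14 proliferation genes 3 rose and none fell (median log2 0.56), but 1 without library CT0_39 and 0 without CT0_401 and CT12_404. They were low in level, with Rrm2, a subunit of ribonucleotide reductase, at 3.93, 2.89 and 4.26 CPM at CT0 and 12.5, 9.60 and 13.1 CPM at CT12 (log2 1.66 ± 0.41, p 0.0107 and 0.0890). Cdk1 was at 0.852, 0.289 and 0.541 CPM at CT0 and 1.44, 2.29 and 1.73 CPM at CT12 (log2 1.67 ± 0.42, p 0.0119 and 0.0989), and the replication gene Mcm6 at 3.41, 5.13 and 4.60 CPM at CT0 and 7.24, 10.0 and 7.32 CPM at CT12 (log2 0.91 ± 0.27, p 0.0334 and 0.120).

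In the growth hormone axis 1 of 13 genes rose and 2 fell. Stat5a and Stat5b, which carry the signal of growth hormone, fell (log2 -0.92 ± 0.17, p 6.71e-04 and 0.0173 for Stat5a; log2 -0.58 ± 0.17, p 0.0315 and 0.155 for Stat5b). Igf1, their main endocrine product, was at 467, 399 and 457 CPM at CT0 and 483, 443 and 512 CPM at CT12 (p 0.581 and 0.828), and Igfbp4, an IGF-binding protein, rose (log2 0.63 ± 0.13, p 0.00239 and 0.0175). Of 14 male-biased liver genes Elovl3 alone was called, and of 6 female-biased genes none.

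Acute phase and metallothionein genes rose in 3 of 20 cases. Il6ra, a receptor subunit for interleukin 6, went from 30.4, 18.4 and 27.2 CPM to 76.9, 61.5 and 73.6 CPM (log2 1.48 ± 0.27, p 9.51e-04 and 0.0175), Steap4, a metalloreductase, rose (log2 1.11 ± 0.24, p 0.00379 and 0.0384), and Saa4 (log2 0.76 ± 0.23, p 0.0382 and 0.153). Of 16 iron genes, Slc39a14, a zinc and iron importer, rose from 163, 139 and 167 CPM to 282, 307 and 297 CPM (log2 0.92 ± 0.15, p 3.05e-04 and 0.00597) and Hfe2 (hemojuvelin), a coreceptor that sets hepcidin, fell from 148, 156 and 153 CPM to 87.4, 87.5 and 87.5 CPM (log2 -0.80 ± 0.15, p 9.82e-04 and 0.0213). Tfrc, the transferrin receptor, was at 34.4, 16.8 and 28.7 CPM at CT0 and 52.7, 30.9 and 45.4 CPM at CT12 (p 0.418 and 0.668).

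Of 12 glucocorticoid receptor targets 3 rose and none fell, and 1 rose without CT0_39, without CT12_404, or without both CT0_401 and CT12_404. The one that rose without CT0_401 and CT12_404 was Per1, counted with the core clock above. Fkbp5, a feedback chaperone of that receptor, was at 28.5, 40.7 and 32.8 CPM at CT0 and 133, 218 and 152 CPM at CT12 (log2 2.30 ± 0.63, p 0.0256 and 0.150), while Tsc22d3, another target, was at 100.1, 73.1 and 94.7 CPM at CT0 and 119.7, 102 and 114 CPM at CT12 (p 0.528 and 0.713). Of 10 Kruppel-like factors 2 rose, Klf13 from 31.3, 24.9 and 29.8 CPM to 96.6, 83.8 and 81.3 CPM (log2 1.61 ± 0.27, p 4.52e-04 and 0.00871). Autophagy genes moved both ways, 3 higher and 2 lower of 15. Bnip3, which marks mitochondria for removal, rose (log2 1.04 ± 0.20, p 0.00166 and 0.0450), the starting kinase Ulk1 (log2 0.86 ± 0.20, p 0.00852 and 0.0604), and Atg14 (log2 0.72 ± 0.18, p 0.0125 and 0.0489), while the cargo receptor Sqstm1 fell (log2 -0.58 ± 0.12, p 0.00227 and 0.0306). Atg14 lost its call without CT0_39 (p 0.0592) and without CT12_48 (p 0.0903).

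Interferon-stimulated genes fell in 6 of 15 cases and rose in none (median log2 -0.49), but the count was 3 without CT12_47, 3 without CT12_404, and 0 without CT0_401 and CT12_404. Isg15, a ubiquitin-like antiviral protein, was at 17.0, 12.3 and 13.8 CPM at CT0 and 5.63, 7.15 and 5.53 CPM at CT12 (log2 -1.23 ± 0.29, p 0.00848 and 0.0898), and Ifit3 at 16.5, 11.4 and 17.4 CPM at CT0 and 6.27, 7.31 and 6.62 CPM at CT12 (log2 -1.17 ± 0.28, p 0.00924 and 0.131). The regulators Irf9 and Stat2 fell (log2 -0.49 ± 0.11, p 0.00425 and 0.0732 for Irf9; log2 -0.37 ± 0.10, p 0.0185 and 0.159 for Stat2). Kupffer cell markers, summed over 9 genes, were at 211 to 218 CPM at CT0 and 145, 235 and 159 CPM at CT12, with none called, and their part in the interferon values was not tested.

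Chaperones and core machinery gave few calls. Of 19 endoplasmic reticulum chaperones Pdia4 alone fell (log2 -0.92 ± 0.22, p 0.00880 and 0.0821), although 16 of the 19 lay below 0 (median -0.43). Hspa5 (BiP), the main one, was at 1316, 1062 and 1272 CPM at CT0 and 749.8, 815 and 787 CPM at CT12 (p 0.138 and 0.424). The stress factor Atf4 fell (log2 -0.54 ± 0.16, p 0.0291 and 0.152). Of 10 cold-inducible and splicing genes 1 rose and 1 fell. Rbm3 rose (log2 0.55 ± 0.14, p 0.0130 and 0.0934), while Cirbp was at 19.7, 27.5 and 19.2 CPM at CT0 and 19.3, 17.1 and 19.5 CPM at CT12 (p 0.506 and 0.525). None was called among 20 heat shock, 15 immediate early, 20 ribosome biogenesis, 74 ribosomal protein, 78 nuclear respiratory chain and 12 mitochondrially encoded genes by edgeR. At an unadjusted p under 0.05 stood 1, 3, 2, 2, 4 and 0 of them in that order, and DESeq2 called 1 gene, of ribosome biogenesis. Medians were -0.13 for ribosomal proteins (69 of 74 below 0) and -0.12 for the respiratory chain (64 of 78 below 0), with the same counts below 0 under RLE scaling. The summed levels of both lists overlapped between times. Ribosomal proteins summed to 14066.7, 15324.5 and 13759.5 CPM at CT0 and 12449.1, 14783.8 and 12178.8 CPM at CT12. The respiratory chain summed to 12916, 14088.6 and 12744 CPM at CT0 and 12255.1, 13475.8 and 11833.5 CPM at CT12. Of 38 proteasome subunits 3 fell, and 1 without CT0_401, without CT12_404, or without both. Psmd11, a lid subunit, fell (log2 -0.46 ± 0.09, p 0.00118 and 0.0240).

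Zonation markers did not shift one way. Of 12 pericentral genes 3 rose and 1 fell, with 1 rising without CT0_39 and 1 without CT0_401 and CT12_404. Of 11 periportal genes 3 rose and 1 fell, with 1 rising when any 1 library was left out and 0 without CT0_401 and CT12_404. The steepest rise and fall among them were Pck1 and Hal, already counted in other lists above. Slc1a2, a glutamate carrier of pericentral cells, rose from 92.8 ± 17.8 to 189 ± 8.58 CPM (n = 3 each; log2 1.02 ± 0.20, p 0.00146 and 0.0229), and Axin2, a Wnt target, fell (log2 -0.62 ± 0.19, p 0.0371 and 0.279). Glul, the defining pericentral enzyme, was at 963, 983 and 936 CPM at CT0 and 1082, 1344 and 1137 CPM at CT12 (p 0.134 and 0.366). Hsd17b6, a steroid dehydrogenase, was at 39.5, 74.0 and 47.1 CPM at CT0 and 132, 195 and 153 CPM at CT12 (log2 1.58 ± 0.34, p 0.00485 and 0.0635).

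The labelled tissue was met by its markers: 12 hepatocyte genes summed to 105634 to 111628 CPM in the 6 libraries. None of 8 endothelial, 7 stellate, 6 lymphocyte, 3 neutrophil or 4 brain markers was called by edgeR or DESeq2, and at an unadjusted p under 0.05 stood 0, 0, 1, 0 and 1 of them. Of 5 cholangiocyte markers Sox9, a factor of bile duct cells, fell from 14.0, 15.9 and 12.4 CPM to 2.47, 3.46 and 3.53 CPM (log2 -2.16 ± 0.23, p 1.11e-06 and 4.80e-05), and the other 4 were not called. In bulk RNA, fewer cells of a type and less RNA per cell cannot be told apart. Of 5 red cell genes 4 fell, 2 of them without CT0_39 or without CT12_404, and none without CT0_401 and CT12_404. Hbb-bs was at 45.1, 38.8 and 43.9 CPM at CT0 and 19.7, 13.6 and 17.4 CPM at CT12 (log2 -1.33 ± 0.32, p 0.0101 and 0.0905) and Hba-a1 at 31.7, 34.6 and 29.6 CPM at CT0 and 13.7, 12.7 and 13.6 CPM at CT12 (log2 -1.26 ± 0.32, p 0.0141 and 0.0898), while Alas2, which makes heme in red cells, was at 148, 143 and 152 CPM at CT0 and 125, 146 and 136 CPM at CT12 (p 0.584 and 0.824). Haemoglobin genes come in near-identical pairs. The 5 heart markers summed to 102 CPM in CT12_404 and to at most 1.67 CPM elsewhere. A projection took every gene at 0.186% of its level in the heart library of the same number. By it, heart RNA would make up over 10% of the CT12_404 level for 6 of the 640 risen genes. The origin of their reads was not tested. The highest were Ak1 (92.4%), Flnc (66.9%) and Tnnc1 (42.1%), which were looked up after the heart transcripts were seen. None of them is named elsewhere here.

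Several of the steepest changes fell outside these lists. Clic3, of the chloride intracellular channel family, fell from 23.8, 16.5 and 23.4 CPM to 1.61, 1.84 and 1.54 CPM (log2 -3.66 ± 0.36, p 2.58e-07 and 8.12e-05), and all of its 1939 bases lie within Paxx on the opposite strand, which fell as well (log2 -2.12). Cldn1, a tight junction claudin, fell from 77.2, 77.5 and 80.8 CPM to 13.8, 10.2 and 15.2 CPM (log2 -2.59 ± 0.23, p 6.83e-08 and 8.61e-06), Dtx4, a ubiquitin ligase (log2 -2.69 ± 0.19, p 1.80e-09 and 8.34e-07), Rab36, a small GTPase (log2 -2.60 ± 0.34, p 2.21e-05 and 0.00118), and the matrix genes Spon2 and Loxl4 as well (log2 -3.15 ± 0.53, p 5.45e-04 and 0.0131 for Spon2; log2 -3.57 ± 0.68, p 0.00204 and 0.0219 for Loxl4). Nrg4, a secreted EGF family ligand, rose from 3.87, 3.69 and 3.04 CPM to 19.9, 13.2 and 19.7 CPM (log2 2.31 ± 0.37, p 2.17e-04 and 0.0115).

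The difference between times was then compared with that in AL KO livers, which share no library with AL WT. The genotypes differed in their change between times for 225 genes (1.56%). The KO change lay above the WT change for 146 of them (1.01%) and under it for 79 (0.549%). Without CT0_401 and CT12_404 they differed for 92 (0.639%), and without these and the KO libraries CT0_407 and CT12_410 for 26 (0.181%), with KO above WT for 23 (0.16%) and under it for 3 (0.0208%). In AL KO livers alone edgeR called 2 genes (0.0139%), both higher at CT12, with 821 at an unadjusted p under 0.05, and DESeq2 called 31. Of the 116 genes named here that were called in AL WT, the genotype difference was called for 41, and for 19 without CT0_401 and CT12_404. Since these genes were chosen by their change in WT, a smaller change in KO is partly fixed by that choice. Lpin2 was at 334 ± 41.1 CPM at CT0 and 325 ± 41.1 at CT12 in KO (difference of log2 changes -1.54 ± 0.26, p 0.00130 and 0.0129), nearer at both times to its WT level at CT12 than at CT0. Clic3 lay low in KO, at 1.84 ± 0.204 CPM at CT0 and 3.59 ± 0.421 at CT12, near its WT level at CT12 (difference 4.63 ± 0.51, p 6.05e-06 and 2.37e-04). Insig2 lay high, at 289 ± 35.6 CPM at CT0 and 271 ± 49.6 at CT12 (difference 1.81 ± 0.33, p 0.00369 and 0.0309), as did Chka, at 227 ± 49.1 CPM at CT0 and 199 ± 50.0 at CT12 (difference 2.60 ± 0.28, p 5.82e-06 and 2.37e-04), both near their WT levels at CT0. Ppp1r3c was at 97.4 ± 31.3 CPM at CT0 and 170.0 ± 55.3 at CT12 (difference 3.29 ± 0.44, p 1.80e-04 and 0.00236). Cdkn1a was at 20.5 ± 10.2 CPM at CT0 and 29.1 ± 4.85 at CT12 (difference 4.12 ± 0.68, p 0.00237 and 0.0243). Both means were higher at CT12 in KO, unlike WT, but the KO libraries overlapped between times. Neither KO change was called by edgeR (log2 0.80 ± 0.30, adjusted p 0.727 for Ppp1r3c, and log2 0.51 ± 0.44, adjusted p 0.997 for Cdkn1a). By contrast, Cpt1a and Foxo3 lay between their WT values, Cpt1a at 283 ± 8.79 CPM at CT0 and 334 ± 48.7 at CT12 and Foxo3 at 50.4 ± 2.53 CPM at CT0 and 54.2 ± 2.43 at CT12 (differences -0.97 ± 0.20, p 0.00846 and 0.0576, and -1.01 ± 0.21, p 0.00946 and 0.0397). For Usp2 and Wee1, with KO changes of 1.99 ± 0.58 and 1.42 ± 0.58, a genotype difference was not called (p 0.423 and 0.499).

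**Figure D5:**
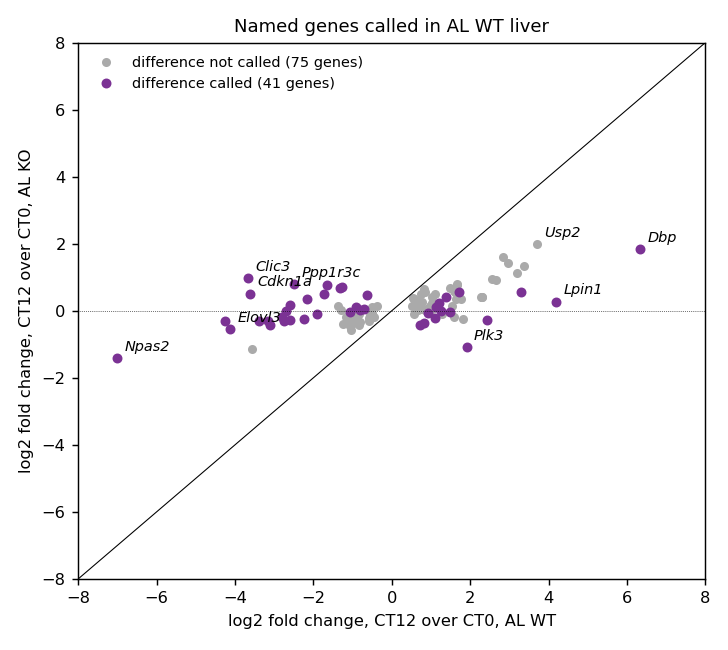
Each point is 1 of the 116 named genes called in AL WT liver, with its log2 fold change (CT12 over CT0) in AL WT on the horizontal and in AL KO on the vertical axis; the line marks equal change. Purple marks the 41 genes whose change differed between genotypes, and most points lie near 0 on the KO axis.

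Under TRF the sign of the change was the opposite for most of these genes. Of the 116, 106 had a log2 change of the opposite sign in TRF WT livers, from libraries not used in AL. This counts signs alone, also of changes near 0 such as -0.098 for Mfsd2a, and the share over all genes was not counted. As these genes were chosen by their change in AL WT, a different change under TRF is partly fixed by that choice. No test of the TRF change alone is given here. The difference between the TRF and AL changes was called for 3602 of all genes (25%), and for 2581 (17.9%) without CT0_401 and CT12_404, 1234 more positive under TRF (8.57%) and 1347 more negative (9.36%). In TRF WT the log2 change was 0.17 for Lpin1, -0.87 for Pfkfb3 and -1.70 for Cpt1a. It was 1.21 for Hmgcs1, 1.86 for Insig2 and 1.60 for Cldn1.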

How the data were processed

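Liver RNA was extracted with TRIzol and 1.3 ug of total RNA per library was prepared with the NEBNext Ultra II kit, per the labels. The submitters' processing notes name FastQC 0.11.8, STAR and mm10 (GRCm38). Which program counted the reads, with which strand setting and annotation, is not given in the sources used here. The authors deposited raw read counts per gene, 1 column per library, and no normalised values were used. Of 38129 entries, 38038 matched GENCODE vM21, from which coordinates come.

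Counts of the 26 liver libraries were filtered with filterByExpr over their 8 groups (14397 genes), scaled by TMM and fitted by edgeR 4.0.16 with a group-means model and robust quasi-likelihood dispersions (R 4.3.3). P-values were adjusted by Benjamini and Hochberg over all tested genes, and a gene was called under 0.05. Replicates are the libraries the labels give. Standard errors are the absolute log2 change over the square root of F. On simulated counts, 80% of genes changed 2-fold and 92% of those changed 3-fold in this comparison were called. The changed genes were drawn only from those above a minimum fitted count, and the simulated libraries were all independent. The rates therefore do not cover genes of low count or libraries that are not independent.

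Pairs of libraries were compared by a chi-square per gene on raw library totals, with at least 100 counts summed over the pair. Mixtures were compared by a chi-square of another form, on totals corrected by TMM, with at least 100 counts summed over the 3 libraries. Promoters came from the RefSeq table (GRCm38.p6), with 250 bases upstream searched. Alternatives were RLE factors, no filter, DESeq2 1.42.0, the compared groups alone, each library left out, sets of libraries left out, and a model term marking AL libraries of 3-digit number. Summing near-identical pairs was added after the data were seen.

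The members and the 56 gene lists were chosen with earlier results of these data known. Genes named are, in each list, the 5 lowest in adjusted p and the first 3 as written, and the 15 steepest rises and 15 steepest falls of called genes that averaged 5 CPM or more and did not overlap between times. Some that met the rule are not reported here. Gene models predicted only, haemoglobins and genes of chromosome 18 were kept out of the largest changes. Lists were given no test of their own.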

Additional observations from a re-analysis of the deposited data

Results flagged for a closer look

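The time difference differed between AL KO and AL WT livers for 225 genes and between TRF WT and AL WT livers for 3602, by tests of the difference itself in edgeR. All values below are the KO minus the WT change on the log2 scale, for the 41 genes named in the text that passed. Of these, 19 also passed without libraries CT0_401 and CT12_404, which leaves 2 WT libraries per time. That fit kept the KO libraries CT0_407 and CT12_410, and without these as well 26 of all genes tested passed. Among the 19, the difference was 5.61 for Npas2, 2.71 for Arntl, 1.81 for Insig2, 3.56 for Elovl3, 2.60 for Chka, 2.46 for Ppard and 3.29 for Ppp1r3c. Next came values of 4.12 for Cdkn1a, 3.08 for Tubb2a, 2.52 for Sox9, 4.63 for Clic3, 3.95 for Pitx3 and 2.67 for Dtx4. Next came values of 2.77 for Rab36 and 2.30 for Cldn1. It was negative, at -1.16 for Nampt, -2.70 for Coq10b, -1.54 for Lpin2 and -1.01 for Foxo3.

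The other 22 passed with all 6 WT libraries and not without CT0_401 and CT12_404. Positive differences were 1.99 for Hmgcs1, 0.77 for Elovl1, 1.02 for Hal, 1.04 for Stat5a, 0.82 for Hfe2, 1.08 for Axin2 and 1.97 for Hba-a1. Next came values of 2.02 for Hbb-bs, 2.42 for Hbb-bt, 2.22 for Hba-a2 and 2.83 for Spon2. Negative ones were -4.51 for Dbp, -0.97 for Gys2, -3.92 for Lpin1, -0.97 for Cpt1a, -2.74 for Pfkfb3, -1.26 for Abcg5 and -1.19 for Abcg8. Next came values of -3.00 for Plk3, -1.33 for Steap4, -0.99 for Slc39a14 and -1.14 for Atg14. Reads of the haemoglobin genes and of Abcg5 and Abcg8 can be shared with a near-identical copy or an overlapping neighbour.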

How the results depend on the processing

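No paired analysis was possible because the CT0 and CT12 libraries of AL WT share no replicate number. The number of genes called was 1294 (640 higher, 654 lower), and between 744 and 1291 when 1 AL WT library was left out, with 369 to 630 higher and 375 to 661 lower. The lowest counts were 744 without CT12_404, 793 without CT0_39, 806 without CT12_47 and 847 without CT0_401. With libraries CT0_401 and CT12_404 left out together it was 474 (208 and 266), with all 4 AL libraries of 3-digit numbers left out 356 (156 and 200), and with CT0_38 summed with CT0_401 and CT12_47 with CT12_404 it was 511 (220 and 291). RLE factors gave 1289, no filter on low counts 976, DESeq2 1510, the compared groups alone 1172, and a term for the 3-digit libraries 1207. The construction of the smaller sets, with 2 libraries per time, leaves fewer replicates.

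The count for AL KO minus AL WT, 225, was 141 without CT12_404 and at most 182 without 1 AL WT library, 339 with DESeq2, 562 with the compared groups alone, 92 without CT0_401 and CT12_404, 26 without the 3-digit libraries and 101 with the pairs summed. That for TRF WT minus AL WT, 3602, was 2171 without the 3-digit libraries and 2949 to 3848 without 1 AL WT library. The cause of these shifts was not tested.

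Of 137 genes named, 116 were called, and 55 of these in every alternative. Without CT0_401 and CT12_404 67 of the 116 were called, and leaving out 1 library ended the calls of Atg14 and Gclc alone among these 67. No called gene changed direction. Genes not called did, and with 1 library left out their lowest and highest log2 changes were -0.40 and 0.01 for Fasn, -0.20 and 0.44 for Srebf1, -0.10 and 0.15 for G6pc, -0.97 and 0.60 for Irs2 and -0.69 and 1.05 for Igfbp1. Fasn reversed to 0.0070 without CT0_39. Srebf1 was also at -0.088 without CT0_401 and CT12_404, at -0.085 without the 3-digit libraries and at -0.24 with the pairs summed, where Irs2 was at 0.042. Agpat2 missed the threshold under RLE factors, and Agpat2 and Etnk2 with the term. Of genes under 1 CPM, 2.91% were called.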
